A study of Mus musculus with 2 samples.

Results

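Transcripts of 9 cytokine receptor genes were followed in activated mouse B cells that carried a vector for the microRNA miR-181b: Il2ra, Il2rb, Il5ra, Il6ra, Il7r, Il9r, Il10ra, Il21r and Ifngr1. They were picked by name from the probe annotation of a whole mouse genome array, which held 15 probes for these 9 genes among 41174 probes for 27670 gene names. Of the 15 probes, 13 were measured, meaning that the scanner software marked each RNA as well above its background on each array. These 13 probes cover all 9 genes, and 25812 probes for 17579 gene names passed the same rule on the whole array. No probe of the set was saturated.

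The miR181b group was RNA of primary spleen B cells of C57BL/6 mice transduced with a retroviral miR181b-GFP vector. The control group was RNA of B cells of the same strain transduced with the control-GFP vector. Cells of both groups had been prepared by magnetic depletion of CD43-bearing cells, grown in lipopolysaccharide at 25 µg/ml and interleukin-4 at 10 ng/ml, exposed to virus for 20 h with polybrene at 8 µg/ml, and then selected on day 2 by sorting for their green fluorescence. The age, sex and number of the mice are not given in the labels. The labels give 1 biological replicate of each vector, so the miR181b group is 1 RNA and the control group is 1 RNA. Both RNAs were hybridised together on 2 arrays with the dyes exchanged, with the miR181b RNA in Cy5 on array 1 and in Cy3 on array 2. The arrays repeat the measurement of 1 pair of RNAs, so the differences below describe these RNAs, no test between the vectors could be made and no p-value is given. Depletion through CD43 takes out cells that carry it, among them T cells, plasma cells and most B-1 cells, and is a usual way to enrich resting B cells.

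These receptors sit on the cell surface as complexes, in which a chain specific to 1 cytokine pairs with a chain that several cytokines share. Ligand binding brings Janus kinases (JAKs) on the chains together, and these phosphorylate STAT transcription factors, which move to the nucleus. The interleukin-2 receptor consists of Il2ra (CD25), Il2rb (CD122) and the common gamma chain Il2rg. The receptors for interleukins 7, 9 and 21 also use the common gamma chain, whereas Il5ra pairs with Csf2rb, Il6ra with Il6st (gp130), Il10ra with Il10rb and Ifngr1 with Ifngr2. In mouse B cells, interleukin-5 supports B-1 cells and the maturation of activated B cells into antibody-secreting cells, interleukin-7 acts on B cell precursors in the bone marrow, and interleukins 6 and 21 act on plasma cell formation.

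The sequence of the overexpressed microRNA is shown because its seed, the bases that pair with a target transcript, is the reference for any match in a probe. It is the mature mmu-miR-181b-5p that RefSeq (GRCm38.p6) lists for Mir181b-1 on chromosome 1 and Mir181b-2 on chromosome 2, with bases 2 to 8 in capitals.
mmu-miR-181b-5p: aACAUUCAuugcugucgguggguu
The probes that carried the differences were those of Il5ra, Il2rb and Il2ra. Each probe has 60 bases, and the first 30 are printed 5′ to 3′ in lower case as the scanner files give them. The 4 Il2ra probes are all shown because they differ in sequence and gave different ratios.
Il5ra A_52_P7457: aacctgttggtcaactcatgcttagtcaat
Il2rb A_51_P286496: gtctattctggggtgggtttttctgtgaag
Il2ra A_51_P118945: ctagtttccttcttcccattagtaataata
Il2ra A_52_P277016: cttggtacataccgtgaaaacactggaaag
Il2ra A_52_P330424: ttttggctagttgattttatggtcattcta
Il2ra A_52_P243438: gcatggttttagtaattttttaataacata
The letters TGAATGT, which pair with bases 2 to 8 of miR-181b, occurred in 0 of the 15 receptor probes and in 1.06% of the 25812 measured probes. The shorter GAATGT, which pairs with bases 2 to 7 and lies within TGAATGT, occurred in 0 of 15 receptor probes and in 2.73% of measured probes. Only the strand printed on the array was searched, since a target site lies on the transcript's own strand, and a probe holds only 60 bases of its transcript.

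Il5ra was the receptor gene that differed most between the RNAs, and it was 1.76-fold higher in miR181b cells. Il2rb followed at 1.36-fold higher. Of the 4 Il2ra probes, 1 was 1.21-fold and 1 was 1.26-fold lower in miR181b cells, and the other 2 had opposite signs on the arrays. Il7r, near the background, was slightly higher and Ifngr1 slightly lower. The probes of Il6ra, Il9r, Il10ra and Il21r changed sign between the arrays.

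In all, 3 of 13 receptor probes were higher in miR181b cells on both arrays, against 23.8% of all measured probes, and 3 of 13 were lower on both, against 26.2% of all measured probes. The other 7 (53.8%) had opposite signs, as did 50.0% of all measured probes, so the split of the receptor probes was close to that of the array. By a rule that asked for at least 1.5-fold on the mean of both arrays and the same sign on each, 1 of 13 probes, that of Il5ra, was higher in miR181b cells, where 0.713% of all measured probes were. By the same rule 0 of 13 were lower, where 0.43% of all measured probes were. The median log2 ratio of miR181b over control was 0.05 for the receptor probes and -0.00 for all measured probes. The receptor median was -0.06 on array 1 and 0.28 on array 2, so the arrays differed more from each other than the receptor probes did from the array.

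**Figure D1:**
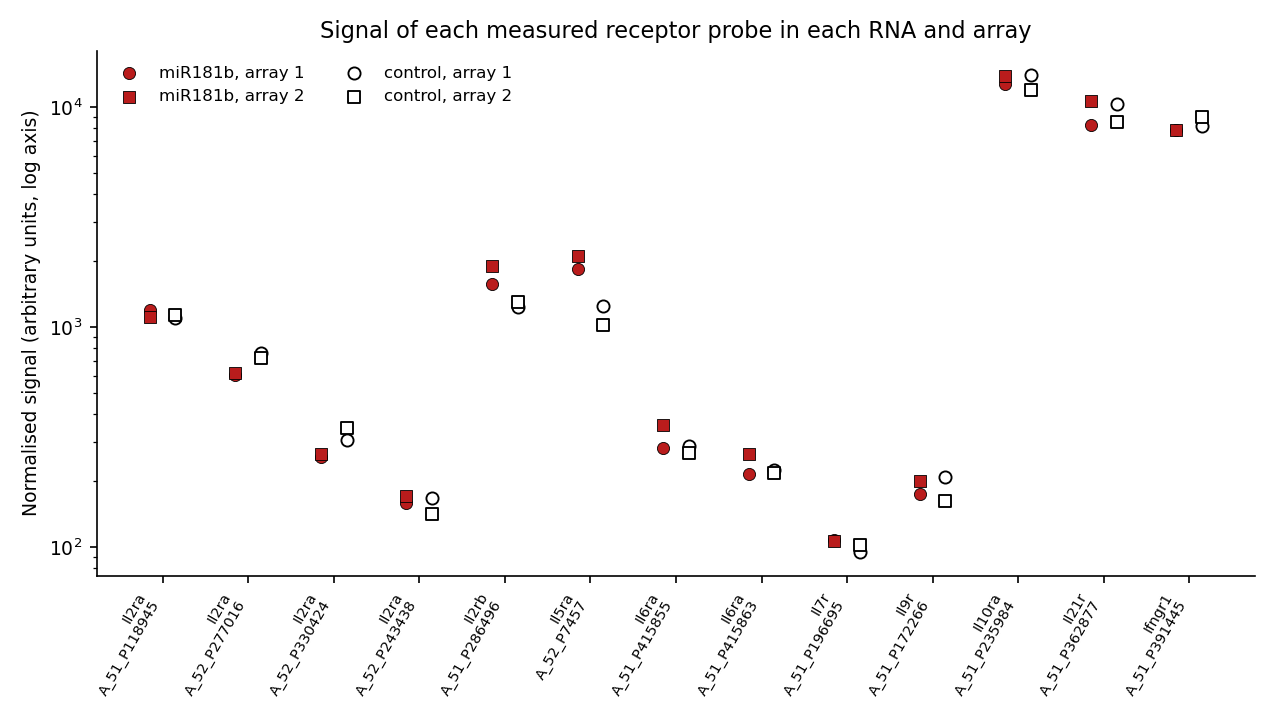
Normalised signal of the 13 measured receptor probes (vertical log axis, arbitrary units), with miR181b RNA as filled red and control RNA as open symbols, circles for array 1 and squares for array 2. Both red symbols of Il5ra (1842 and 2108) and of Il2rb (1570 and 1895) lie above both open symbols, whereas those of Il10ra and Il21r overlap.

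Signals below are in arbitrary units after background correction, an offset of 50, loess and quantile scaling of the average signal. They compare both RNAs at 1 probe and not 1 probe with another. Each ratio is the log2 of miR181b over control, averaged over the arrays, and ± is the distance of either array from that average, which is a technical spread over 1 pair of RNAs. In RNA from a population, more cells of a type and more RNA per cell cannot be told apart. Without loess the median of all measured probes was -0.18. A value below 0 in that setting can thus still lie above that median.

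The chain specific to interleukin-5, Il5ra, was read by 1 probe. It gave 1842 and 2108 units in miR181b RNA on arrays 1 and 2, against 1241 and 1015 units in control RNA. The miR181b RNA was thus the higher on both arrays, under either dye, and its lower value exceeded the higher control value. The log2 ratio was 0.57 on array 1 and 1.06 on array 2, which gives 0.81 ± 0.24, or 1.48-fold and 2.08-fold on the single arrays. Il5ra ranked at place 50 from the top of the 25812 measured probes. It lay in decile 7 of 10 by signal, where 95% of probes had arrays within 0.39 of their average and 95% had an average within 0.44 of 0. The spot was 34.3 and 31.5 times its local background in miR181b RNA and 21.1 times it on both arrays in control RNA, far from the level of the background. Without loess the ratio was 0.50 (0.40 and 0.60), under 1.5-fold, at place 36 and 0.68 above the median of all probes.

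The beta chain of the interleukin-2 and interleukin-15 receptors, Il2rb, gave 1570 and 1895 units in miR181b RNA, against 1230 and 1298 units in control RNA. Both technical readings of the miR181b RNA again lay above both readings of the control RNA. Its ratio was 0.45 ± 0.10 (0.35 and 0.55), at place 480 of 25812 from the top and short of 1.5-fold. Of probes in its decile, also 7, 95% had an average within 0.44 of 0. Without loess it was 0.13, which was 0.31 above the median of all probes.

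The alpha chain Il2ra, which raises the affinity for interleukin-2 and marks activated lymphocytes, had 4 measured probes that did not give 1 answer. The brightest, A_51_P118945, gave 1197 and 1106 units in miR181b RNA, against 1095 and 1130 units in control RNA. Its ratio of 0.05 ± 0.08 changed sign between the arrays, and the values of the RNAs interleaved. The probe A_52_P277016 gave 605 and 614 units in miR181b RNA, against 759 and 722 units in control RNA, a ratio of -0.28 ± 0.05. Both miR181b values lay below both control values, at place 1128 of 25812 from the bottom. The same order was seen for A_52_P330424, with 257 and 263 units in miR181b RNA, against 307 and 346 units in control RNA, a ratio of -0.33 ± 0.07 and place 722 from the bottom. The dimmest probe, A_52_P243438, gave 159 and 171 units in miR181b RNA, against 166 and 141 units in control RNA, a ratio of 0.11 ± 0.17 with overlapping groups. Whether the probes read different transcripts of Il2ra was not tested, since no genome or transcript set was used here.

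**Figure D2:**
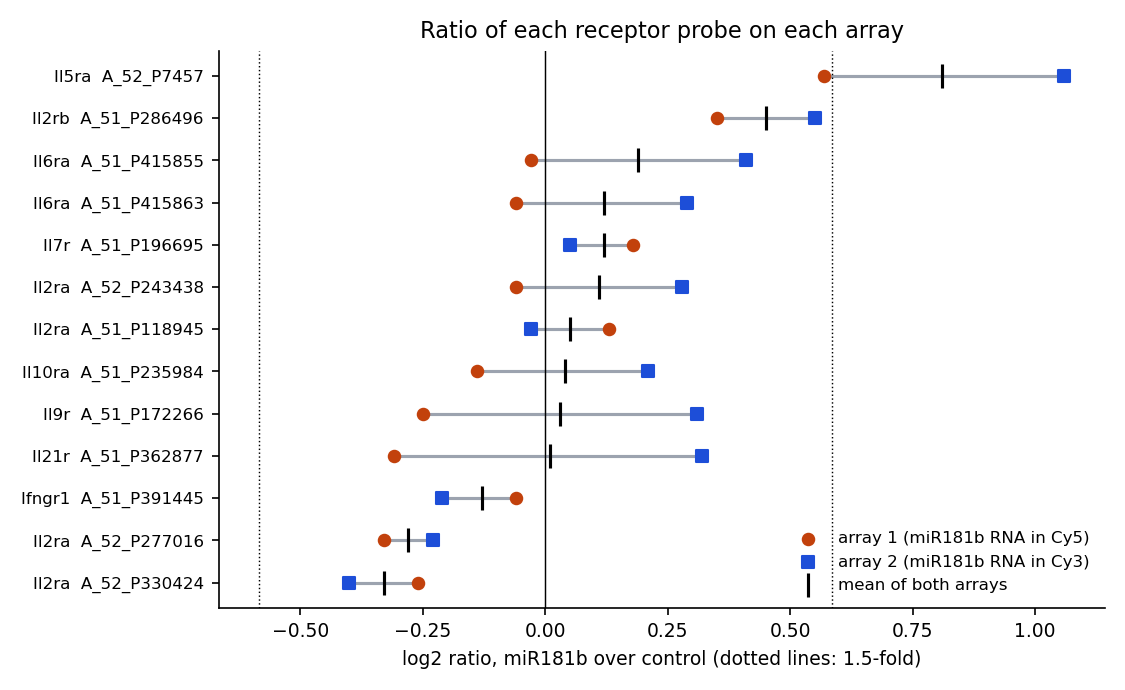
Log2 ratio of miR181b over control (horizontal axis) for each of the 13 measured receptor probes, sorted by their mean, with array 1 as orange circles, array 2 as blue squares, the mean as a black bar and dotted lines at 1.5-fold. Il5ra lies at 0.57 and 1.06, 2 of the 4 Il2ra probes lie below 0 on both arrays, and the line joining the arrays crosses 0 for 7 probes.

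The remaining chains that pair with the common gamma chain are Il7r, Il9r and Il21r. Il7r, the interleukin-7 receptor chain of B cell precursors and naive T cells, gave 107 and 106 units in miR181b RNA, against 95 and 102 units in control RNA, on its probe A_51_P196695. Its ratio was 0.12 ± 0.06, but the spot was only 1.88 and 1.86 times the local background in miR181b RNA and 1.65 and 1.68 times in control RNA, where the offset compresses ratios. Under the scanner's own ratio, without an offset, it was 0.28. The other 2 Il7r probes, A_52_P555957 and A_52_P32750, were not marked as well above background in every RNA and array, so no ratio is given for them.

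Il9r, which encodes the interleukin-9 receptor, gave 174 and 200 units in miR181b RNA, against 208 and 161 units in control RNA. Il21r, which encodes the receptor of the T helper cytokine interleukin-21, gave 8311 and 10629 units in miR181b RNA, against 10300 and 8509 units in control RNA. In both genes the miR181b RNA was the lower on array 1 and the higher on array 2, so that the sample labelled with Cy3 was the higher each time. The ratios were 0.03 ± 0.28 for Il9r (-0.25 and 0.31) and 0.01 ± 0.32 for Il21r (-0.31 and 0.32), each with a spread larger than the mean. Without loess they were -0.07 and -0.39, or 0.11 and -0.2 relative to the median of all probes in that setting.

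The interleukin-6 receptor gene Il6ra had 2 probes with the same pattern between dyes. A_51_P415855 gave 281 and 357 units in miR181b RNA, against 287 and 268 units in control RNA, a ratio of 0.19 ± 0.22. A_51_P415863 gave 214 and 264 units in miR181b RNA, against 223 and 216 units in control RNA, a ratio of 0.12 ± 0.18. On both probes the miR181b RNA stood above control on array 2 alone.

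Il10ra, the ligand-binding chain for the anti-inflammatory cytokine interleukin-10, gave 12699 and 13838 units in miR181b RNA, against 14026 and 11923 units in control RNA. The groups overlapped, and the ratio was 0.04 ± 0.18 (-0.14 and 0.21), or -0.36 without loess. Ifngr1, the ligand-binding chain for interferon-gamma, gave 7850 and 7832 units in miR181b RNA, against 8201 and 9035 units in control RNA. It was 1.10-fold lower in miR181b cells at -0.13 ± 0.07, with the miR181b RNA below control on both arrays, and was at -0.52 without loess. Il10ra, Il21r and Ifngr1 lay in decile 10 by signal, where 511 of 2582 probes were saturated and the arrays of 95% of probes lay within 0.91 of their average.

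**Figure D3:**
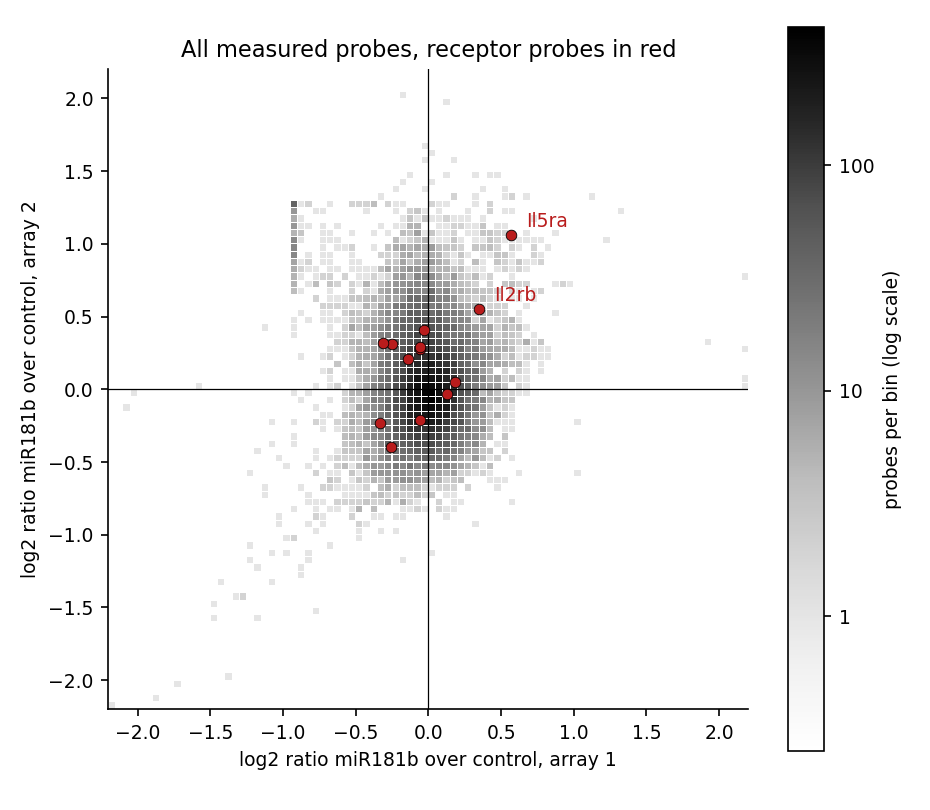
Log2 ratio of miR181b over control on array 1 (horizontal axis) against array 2 (vertical axis) for the 25812 measured probes, in grey by the number of probes per bin on a log scale, and the 13 receptor probes in red. Il5ra and Il2rb lie in the upper right, where both arrays are above 0, and 6 of the other receptor probes lie in the upper left, negative on array 1 and positive on array 2.

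Of the 7 receptor probes with opposite signs, 6 were negative on array 1 and positive on array 2, and 1 ran the other way. Over all measured probes 6579 of 12909 with opposite signs ran as those 6 did. A contrast between the dyes, counted by the same 1.5-fold rule, held 0 of 13 receptor probes and 1.25% of all measured probes. No receptor probe was saturated, and among measured probes never saturated the contrast held 0.304%. The dye contrast of the receptor probes ran between -0.32 and 0.08 with a median of -0.17. The mean over exchanged dyes removes such an effect from each ratio only as far as it was equal on both arrays.

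The chains that pair with these receptors were read through the brightest measured probe of each gene. All 6 were measured, and 5 of 6 were higher in miR181b cells on both arrays, against 24.4% of all 17579 measured genes, with 0 lower, against 27.4%, although without loess all 5 were below 0. None of the 6 reached 1.5-fold, where 0.819% of all measured genes were higher and 0.512% lower. The median ratio was 0.21 for the shared chains, -0.01 for all measured genes, and -0.15 for the shared chains without loess, where the median of all measured probes was itself -0.18. The shared chains thus lay above the median of the array with loess and close to it without. That median covers probes of every signal, and the shift without loess differed between bright and dim probes. Whether the chains lay apart from probes of like signal without loess was not tested.

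Csf2rb, the signalling partner of Il5ra that it shares with the receptors for interleukin-3 and GM-CSF, gave 10378 and 10158 units in miR181b RNA, against 8144 and 9173 units in control RNA. Its ratio was 0.25 ± 0.10, with other probes between 0.24 and 0.43, and without loess it was -0.14. Its mouse paralogue Csf2rb2, a beta chain specific to interleukin-3, stood at 0.24 ± 0.02 (-0.09 without loess), and probes of such close copies may bind both transcripts, so these values are uncertain. The Il5ra ratio exceeded that of its partner chain under each setting tried. Il2rg, the common gamma chain, gave 8860 and 12477 units in miR181b RNA, against 9847 and 6398 units in control RNA. Its arrays had opposite signs (-0.15 and 0.96), so its ratio of 0.41 ± 0.56 is not a difference beyond technical spread. Il6st was at 0.17 ± 0.03, Il10rb at 0.11 ± 0.03 and Ifngr2 at 0.06 ± 0.01, the last with another probe at -0.09.

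Other cytokine receptor genes gave the nearest comparison. Of 32 listed, 27 were measured, of which 2 were higher on both arrays, 8 were lower on both and 17 had opposite signs. Over all measured genes the shares were 24.4%, 27.4% and 48.2%. The median ratio of the 27 was -0.06, with -0.04 on array 1 and -0.10 on array 2. The gene with the largest ratio was Il1r2, the decoy receptor for interleukin-1, with 1242 and 1365 units in miR181b RNA, against 2109 and 2053 units in control RNA. It was 1.60-fold lower in miR181b cells (-0.68 ± 0.09, another probe at -0.53) and the only 1 of 27 past 1.5-fold. By that rule 0.819% of all measured genes were higher and 0.512% lower. Il12rb1, a chain of the interleukin-12 and interleukin-23 receptors, was at -0.29 ± 0.01, and Csf1r, the receptor of macrophage colony-stimulating factor, at -0.26 ± 0.05 with other probes between 0.13 and 0.19. Il4ra, the receptor of the interleukin-4 in the medium, had 7669 and 8991 units in miR181b RNA, against 9183 and 8323 units in control RNA, a ratio of -0.07 ± 0.19 with opposite signs. Il3ra, which uses Csf2rb as Il5ra does, was named after its values were seen, and was at 0.22 ± 0.09. The other receptor gene higher on both arrays, Il15ra, also named after its values were seen, was at 0.09 ± 0.08. Il12rb2, Il20ra, Csf3r, Osmr and Lepr were not measured.

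Of 10 ligand genes, 4 were measured. Il10, the ligand of Il10ra, gave 4486 and 4423 units in miR181b RNA, against 5383 and 5240 units in control RNA, a ratio of -0.25 ± 0.01. Il15, whose receptor includes Il2rb, was at 0.14 ± 0.10 (-0.05 without loess). Il6 and Ifng had opposite signs on the arrays. Il2, Il5, Il7, Tslp, Il9 and Il21, cytokines made mostly by T cells, stromal cells or epithelia, were not measured by the rule above.

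Among the genes that carry the signal of these receptors, JAKs and STATs were all measured. Of these 11 genes, 0 were higher in miR181b cells on both arrays, against 24.4% of all measured genes, and 7 were lower on both, against 27.4%. None of the 11 reached 1.5-fold. Their median was -0.11, or -0.45 without loess. The median of all probes was then -0.18, but it covers probes of every signal and not only bright ones. Stat3, which acts below the interleukin-6, 10 and 21 receptors, gave 12290 and 13020 units in miR181b RNA, against 17834 and 17224 units in control RNA. Its ratio was -0.47 ± 0.07, but another probe gave -0.03. Stat4, which acts below interleukin-12, was at -0.40 ± 0.01, and Stat5b, which acts below interleukins 2, 5 and 7, was at -0.34 ± 0.25 with other probes between 0.01 and 0.11.

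Known targets of these pathways went both ways. Their counts stand beside 24.4% of all measured genes higher on both arrays, 27.4% lower and 48.2% of opposite sign. Of 9 STAT5 targets 2 were higher and 2 lower on both arrays, with a median of 0.02. Cish, a feedback inhibitor that STAT5 induces below the interleukin-2 receptor, gave 1258 and 1257 units in miR181b RNA, against 1743 and 1763 units in control RNA, a ratio of -0.48 ± 0.01. Both technical readings of the miR181b RNA lay below both readings of the control RNA at Cish. The cyclin gene Ccnd2 was at 0.22 ± 0.13 on a probe that was saturated in part (-0.21 without loess), and Osm, which encodes the cytokine oncostatin M, at -0.06 ± 0.01.

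Of 7 STAT3 targets 2 were higher and 3 lower on both arrays, with a median of -0.11. Those of opposite sign, Junb and Mcl1, were read on probes that were saturated in part. Socs3, an inhibitor of the interleukin-6 receptor complex, gave 12920 and 12451 units in miR181b RNA, against 18117 and 16568 units in control RNA, a ratio of -0.45 ± 0.04. The NF-kappaB cofactor gene Bcl3 was at -0.20 ± 0.02, and Prdm1, which encodes the plasma cell factor Blimp-1, at 0.19 ± 0.09 (-0.19 without loess). Of 10 measured interferon-gamma targets, 1 was higher, 0 were lower and 9 had opposite signs, with a median of 0.07. Among those of opposite sign, Psmb8, Psmb9 and Irf8 were read on probes that were saturated in part. The one higher on both arrays was Gbp2, a guanylate-binding protein gene, at 0.17 ± 0.08 (-0.25 without loess).

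**Figure D4:**
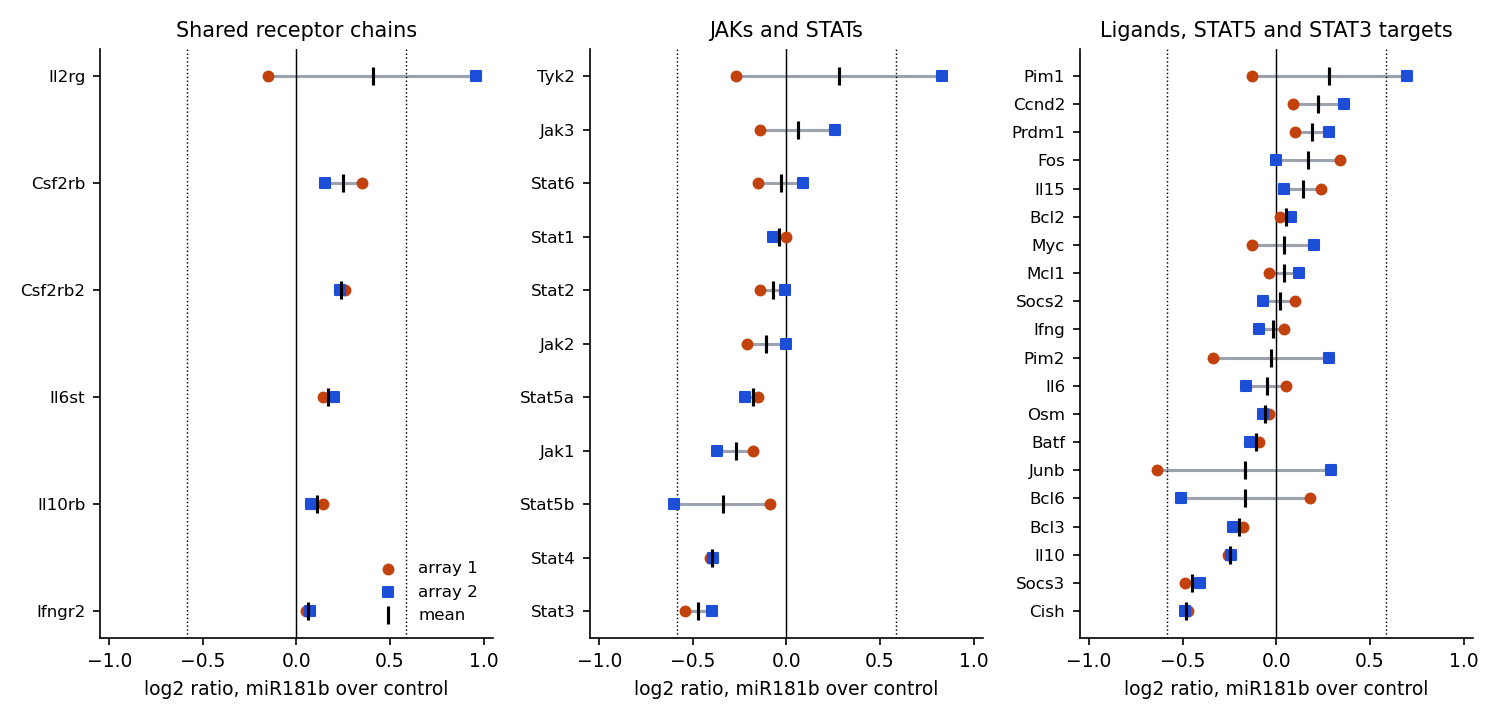
Log2 ratio of miR181b over control (horizontal axes) for the shared receptor chains, the JAKs and STATs, and the ligands with STAT5 and STAT3 targets, by the brightest measured probe of each gene, with array 1 as orange circles, array 2 as blue squares, the mean as a black bar and dotted lines at 1.5-fold. Csf2rb and Csf2rb2 lie right of 0 on both arrays, and Stat3 (-0.47), Stat4 (-0.40), Cish (-0.48) and Socs3 (-0.45) lie left of 0 on both.

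Some of these receptors are also known from other cells, so marker lists were set beside them. Each marker count stands beside 24.4% of all measured genes higher on both arrays, 27.4% lower and 48.2% of opposite sign. All 10 B cell markers were measured, 4 of them on saturated probes, with 2 higher on both arrays and 8 of opposite sign. The median of the 10 was 0.18 (array 1 gave -0.30, array 2 gave 0.70). Their summed signal was 268887 and 456559 units in miR181b RNA, against 414035 and 238827 units in control RNA. Those sums rest mostly on the 4 saturated probes, all of which had opposite signs on the arrays. Cr2 was at 0.25 ± 0.00 (-0.09 without loess) and the antigen receptor gene Cd79a at 0.86 ± 0.70.

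Il5ra is known from B-1 cells, antibody-secreting cells and, with Csf2rb, eosinophils. All 5 markers of B-1 and marginal zone cells were measured, 2 higher and 1 lower on both arrays, with sums of 27120 and 28758 units in miR181b RNA, against 29665 and 27879 units in control RNA. Without the brightest of them, Dtx1, the sums were 9621 and 9172 units in miR181b RNA, against 8532 and 8768 units in control RNA, a choice made after the values were seen, as were the sums below that leave out a list's brightest gene. Among them Cd5 was at -0.23 ± 0.06, Cd1d1 at 0.16 ± 0.09 and Cd9 at 0.15 ± 0.14, while Cd1d1 (-0.18) and Cd9 (-0.22) were below 0 without loess. Of 7 measured plasma cell genes, 5 were higher on both arrays and 0 lower (Prdm1 being at -0.19 without loess), with a median of 0.36 and sums of 99282 and 165531 units in miR181b RNA, against 101407 and 73537 units in control RNA. Those sums rest mostly on Jchain, the antibody joining chain gene, whose probe was saturated and had opposite signs on the arrays. Without it they were 53312 and 63478 units in miR181b RNA, against 40451 and 31816 units in control RNA, with miR181b RNA the higher on both arrays. Xbp1, the transcription factor of secretory cells, was at 0.99 ± 0.49, Ell2 at 0.48 ± 0.08 and Irf4 at 0.36 ± 0.19.

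Of 10 granulocyte and mast cell genes 6 were measured, 1 higher and 2 lower on both arrays, with sums of 17807 and 19230 units in miR181b RNA, against 11459 and 12065 units in control RNA. Without the brightest gene, Prg2, they were 705 and 690 units in miR181b RNA, against 722 and 801 units in control RNA. The difference lay in Prg2, the eosinophil major basic protein gene, which gave 17103 and 18540 units in miR181b RNA, against 10736 and 11264 units in control RNA, a ratio of 0.70 ± 0.02. Epx, the eosinophil peroxidase gene, named after its values were seen, gave 117 and 123 units in miR181b RNA, against 125 and 119 units in control RNA. The readings of the RNAs thus overlapped at Epx and not at Prg2. Mpo was at -0.13 ± 0.07 and S100a9 at -0.10 ± 0.06, and Elane, Cpa3, Ms4a2 and S100a8 were not measured. The part of plasma cell genes and of Prg2 in the Il5ra ratio was not tested.

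Il2ra, Il2rb and Il7r are also carried by T cells, and Il2rb by natural killer cells. Of 14 T cell genes 12 were measured, 6 higher and 2 lower on both arrays, with a median of 0.09 and sums of 12765 and 13066 units in miR181b RNA, against 13013 and 12052 units in control RNA. Without the brightest, Cd2, the sums were 7706 and 7634 units in miR181b RNA, against 7996 and 7574 units in control RNA. Cd3e was at 0.25 ± 0.12, Cd3g at 0.23 ± 0.09 and Lck at -0.19 ± 0.06, whereas Foxp3 and Cd247 were not measured. Of 9 natural killer cell genes 4 were measured, 2 higher and 1 lower, with sums of 924 and 934 units in miR181b RNA, against 838 and 786 units in control RNA. Without the brightest, Prf1, they were 405 and 392 units in miR181b RNA, against 388 and 394 units in control RNA. Prf1 was at 0.34 ± 0.13, Klrd1 at 0.12 ± 0.03 and Nkg7 at -0.04 ± 0.03, and Ncr1, Klrk1, Gzma, Gzmb and Eomes were not measured. The part of such cells in the Il2rb ratio was not tested.

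Il7r marks early B cells, of which 5 of 6 genes were measured, with sums of 39091 and 36258 units in miR181b RNA, against 30658 and 36063 units in control RNA. Nearly all of that signal was Vpreb3, and without it the sums were 898 and 831 units in miR181b RNA, against 856 and 931 units in control RNA. Vpreb3 was at 0.18 ± 0.17 (-0.24 without loess), Vpreb1 at -0.17 ± 0.13 and Igll1 at 0.06 ± 0.00 (-0.03 without loess), and Rag2 was not measured. Ifngr1, Il6ra and Il10ra are abundant on macrophages, of which 5 genes were measured, 1 higher and 2 lower on both arrays, with sums of 3898 and 3824 units in miR181b RNA, against 3753 and 3807 units in control RNA. Without the brightest, Adgre1, the sums were 1624 and 1809 units in miR181b RNA, against 1700 and 1513 units in control RNA. Lyz2 was at -0.49 ± 0.07, Csf1r at -0.26 ± 0.05 as above, and Itgam at 0.27 ± 0.10, and Mrc1 and Fcgr1 were not measured. Their part in the receptor ratios was not tested.

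Each array held 45018 spots, of which 43379 were not control spots. The share of these 43379 clearly above background ran between 64.7% and 67.7% over the arrays and dyes. For the median measured probe, either array lay 0.10 from the mean ratio on the log2 scale. The balance of higher and lower probes changed with loess. The 1.5-fold rule found 184 probes higher and 111 lower with it, and 10 higher and 1131 lower without it. Values without loess are for that reason to be read against the median of all probes in that setting, -0.18, and not against 0. That median is not a full reference, because the shift differed between probes. The bright probe of Il10ra went from 0.04 to -0.36 without loess, and the dim probe of Il7r from 0.12 to 0.16.

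**Figure D5:**
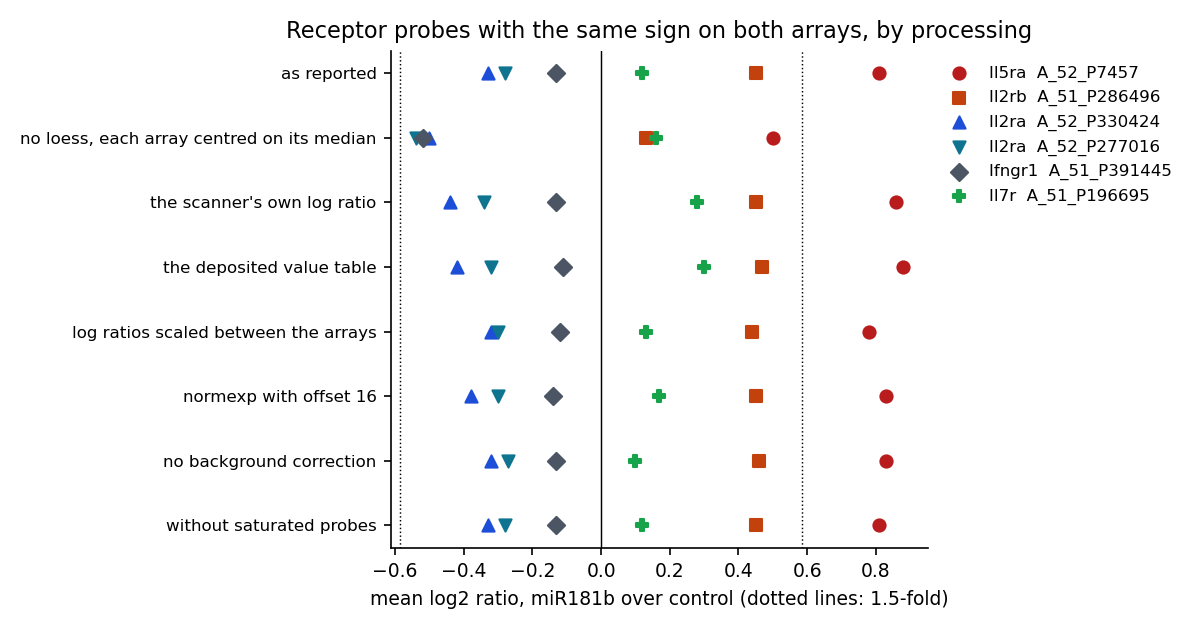
Mean log2 ratio of miR181b over control (horizontal axis) for the 6 receptor probes with the same sign on both arrays, under each way of processing both arrays (rows), with dotted lines at 1.5-fold. Among the settings plotted, Il5ra lies at 0.50 without loess and between 0.78 and 0.88 under the others, and each of the 6 probes keeps its sign.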

How the data were processed

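The deposited scanner files were written by Agilent Feature Extraction 9.1.3.1, per the file headers, and hold the mean spot intensity and median local background intensity of Cy3 and Cy5 on a linear scale. Their deposited log10 ratio, Cy5 over Cy3 of background-subtracted and dye-normalised signals per the file headers, and the authors' deposited table of log2 ratios were alternatives. All 40929 probes with 1 spot matched between that table and the scanner's ratio within 0.0001, once the sign of array 2 had been turned and 0.0011 (array 1) and 0.0327 (array 2) added, so its scale, direction and centring are known. Its column medians are -0.0626 and -0.0704. The direction of each ratio follows the dyes in the labels.

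With limma 3.58.1 in R 4.3.3, background was corrected by normexp (offset 50), each array was loess-normalised (control spots had weight 0), and Aquantile gave signals per RNA. Spots marked as outliers were left out (7 and 21). The arrays are technical repeats and count as 1 replicate, and their number limits the precision. Probes were named through RefSeq (GRCm38.p6) by accession (22951), symbol (6659) or synonym (3109), and 8455 kept the file's name. No gene coordinates are given, because no build is named for the array design. Named genes were all 9 receptors with every probe, all shared chains, Il4ra and, per list, up to 3 genes with the largest mean ratio among those whose arrays had 1 sign. Il3ra, Il15ra, Il6, Ifng, Jchain, Dtx1, Epx, Cd2, Adgre1, Psmb8, Psmb9, Irf8, Junb and Mcl1 were added after their values were seen. The receptors and lists were chosen with earlier results of these data known. The steps were tested on simulated data.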

Additional observations from a re-analysis of the deposited data

How the results depend on the processing

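The 1 receptor probe at least 1.5-fold higher in miR181b cells, that of Il5ra, was 0 probes without loess and 0 at a fold of 2, and 0 to 1 when either array was left out (its ratio was 1.06 without array 1 and 0.57 without array 2); the count of 0 lower probes did not change under any alternative run. Over all measured probes, 184 higher and 111 lower became 10 and 1131 without loess, 305 and 263 with the scanner's log ratio, 326 and 247 with the deposited table, and 9 and 22 at a fold of 2. With either array left out they were 124 to 1431 higher and 316 to 358 lower. The median of the shared chains, 0.21, was -0.15 without loess and 0.14 to 0.17 on single arrays. The JAK and STAT median of -0.11 was -0.45 without loess. The median of other cytokine receptors, -0.06, was -0.18 without loess and -0.01 with all probes of a gene averaged. Of the 13 receptor probes, 5 turned sign without loess, where the median of all probes was -0.18. Of these, Il9r (by 0.11) and the Il6ra probe A_51_P415863 (by 0.16) stayed above that median. With ratios scaled between the arrays 2 turned (Il9r and Il21r), and with the scanner's ratio 1 did. Leaving out array 1 turned 1 probe, and leaving out array 2 turned 6. All probes that turned had opposite signs on the arrays. The cause was not tested. The normexp offset, the background correction, the filter on dim probes and the removal of saturated probes turned none of the 13. Values that rounded to -0.0 were not counted as turned, namely Il21r with the smaller offset and Il10ra with scaled ratios. No paired analysis was possible because the arrays hold 1 pair of RNAs. Dim probes such as those of Il7r are limited by their signal over background, and bright ones by the spread between dyes.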
